A study of Homo sapiens with 9 samples.

Results

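The genes described here belong to families that are transcribed in the cleavage-stage human embryo and are known as targets of the transcription factor DUX4. Members were chosen by symbol, namely every PRAMEF gene with a number, every TRIM43 and TRIM49 gene, MBD3L2 to MBD3L5, every RFPL gene with a number, every gene whose symbol begins with DUX, and the single genes ZSCAN4, LEUTX, KDM4E, CCNA1, KHDC1L, TPRX1 and SLC34A2. This gave 50 of the 26475 symbols in the count table, of which 20 were PRAMEF, 8 RFPL, 5 TRIM49, 4 MBD3L, 4 DUX, 2 TRIM43 and 7 single genes. The measurements come from A375, an established human melanoma cell line with a BRAF mutation, grown in culture, with no genetic change named in the labels. Cells received the solvent DMSO, TP-472 at 5 µM or TP-472 at 10 µM for 24 h, and each group had 3 libraries described as biological replicates. TP-472 is a small molecule that binds the bromodomains of BRD9 and BRD7, subunits of SWI/SNF chromatin remodeling complexes. RNA sequencing addressed which transcripts changed with the inhibitor, and the 3 groups allow each dose to be set against DMSO and the higher dose against the lower. Both TP-472 groups were compared with the same DMSO libraries.

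DUX4 is a double homeobox protein encoded in a tandem repeat near the end of the long arm of chromosome 4. It is expressed briefly when the embryonic genome switches on, is silenced in most adult tissues, and its return in muscle underlies facioscapulohumeral dystrophy. It binds a paired homeodomain sequence and activates ZSCAN4, LEUTX, KDM4E, CCNA1 and the PRAMEF, TRIM43, TRIM49, MBD3L and RFPL genes, many of which lie in clusters of recent, near-identical copies. The symbol rule also takes in genes that are not known as DUX4 targets, namely the pseudogenes DUXAP8 and DUXAP10 and the antisense transcripts RFPL1S and RFPL3S.

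Promoter sequences of members are shown first because the families share short elements there. RefSeq promoters of GRCh38.p14, from 250 bases before to 50 bases after the annotated start, were at hand for 37 of the 50 members, with 42 entries. The published DUX4 consensus, searched on both strands, was found in 7 of these 37 members (PRAMEF7, PRAMEF8, RFPL4A, RFPL4AL1, TRIM49B, TRIM49D1 and TRIM49D2), and in 45 of 35116 promoter entries of all genes, or 0.128%. Of the 7, 4 are printed below from 5′ to 3′ on the strand of the gene, with the match in capitals. The others are copies of these. The bases printed for PRAMEF7 are identical in PRAMEF8, and those of RFPL4AL1 are nearly identical in RFPL4A. Those of TRIM49D2 match TRIM49D1 apart from bases near the left end. The 7 are therefore not independent finds, and their share beside 0.128% is no measure of enrichment. TRIM49B lies in chr11:49028644-49028713 (plus strand), TRIM49D2 in chr11:89923840-89923909 (plus strand), PRAMEF7 in chr1:12916415-12916484 (plus strand) and RFPL4AL1 in chr19:55768998-55769067 (plus strand), where the match is on the opposite strand.
TRIM49B: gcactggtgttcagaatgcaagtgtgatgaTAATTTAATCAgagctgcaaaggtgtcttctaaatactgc
TRIM49D2: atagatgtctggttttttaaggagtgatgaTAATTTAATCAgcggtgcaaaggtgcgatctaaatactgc
PRAMEF7: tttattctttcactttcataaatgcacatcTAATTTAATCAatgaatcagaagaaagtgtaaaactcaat
RFPL4AL1: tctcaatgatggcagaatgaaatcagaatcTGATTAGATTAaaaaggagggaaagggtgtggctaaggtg

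The looser element TAATNNAAT, which overlaps every match of the consensus printed above, was found in 13 of the 37 members and in 1055 of the 35116 entries (3.00%). Among these were MBD3L2, MBD3L3, MBD3L4, MBD3L5 and LEUTX, which held no full consensus. The 13 also include every member with the full consensus, so near-identical copies are counted here too. A shorter element, TCTAATCA, was chosen after the sequences were seen and overlaps the right end of one form of the consensus. It stood in 14 of the 37 members and in 219 of the 35116 entries (0.624%), and 13 of the 14 were PRAMEF genes. These included PRAMEF1 and PRAMEF15, which were not called higher, and PRAMEF10, which had no counts. The element is in capitals in PRAMEF12 (chr1:12773609-12773678, plus strand), PRAMEF2 (chr1:12856941-12857010, plus strand) and PRAMEF14 (chr1:13347194-13347263, minus strand), shown because these members rose with TP-472 and the bases around the element are much alike. PRAMEF20 (chr1:13410375-13410444, plus strand) also rose, but it holds the element on the opposite strand and within other bases, so the PRAMEF promoters are not all of one kind.
PRAMEF12: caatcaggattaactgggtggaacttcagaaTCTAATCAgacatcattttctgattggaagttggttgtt
PRAMEF2: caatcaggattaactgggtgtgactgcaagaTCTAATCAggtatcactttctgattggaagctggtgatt
PRAMEF14: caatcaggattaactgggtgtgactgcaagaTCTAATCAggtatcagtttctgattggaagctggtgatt
PRAMEF20: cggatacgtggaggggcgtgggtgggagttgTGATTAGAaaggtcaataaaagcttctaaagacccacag

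ZSCAN4 and CCNA1 held none of the 3 elements within these 300 bases, which says only that the letters are not in that window. Of the members called higher at 10 µM, 14 had a promoter entry. The consensus was held by 3 of these, TAATNNAAT by 4 and TCTAATCA by 5. Among all 37 members with an entry, the numbers were 7, 13 and 14. A match in a promoter is a description of the sequence, and DUX4 binding was not measured in these cells. No promoter entry was found for DUXAP10, DUXAP8, KDM4E, PRAMEF16, PRAMEF19, PRAMEF22, PRAMEF25, PRAMEF9, RFPL1, RFPL3S, TPRX1, TRIM43 and TRIM43B.

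The 9 libraries held 42483091 to 51298130 expected counts each, and the members took 0.00364% to 0.00908% of them. At this depth 1 count is worth about 0.02 CPM (the count of a gene scaled to library size), so most members were measured by few reads. The first 10 µM library stood apart, with a mean correlation with its group of 0.973 over genes, beside 0.982 to 0.997 for the other libraries. Of 15 melanocyte lineage markers, 11 reached 1 CPM in every group, led by CSPG4, SOX10, MCAM and ERBB3, while TYR was at 0. Summed, these 15 stood at 1677 to 1685 CPM without inhibitor, 1353 to 1373 CPM with 5 µM and 1029 to 1096 CPM with 10 µM. CSPG4 and ERBB3 carried most of that fall, from means of 704.5 and 215.5 CPM in DMSO to 228.8 and 107.2 CPM at 10 µM, while the median log2 fold change of the 13 tested was -0.13. Of 20 germ cell and pluripotency markers, 4 reached 1 CPM in every group (TFAP2C, SOX2, ZFP42 and ZP3), DPPA5, GDF3, STRA8 and SYCP1 were at 0, and the sum was 153 to 155, 119 to 127 and 125 to 132 CPM. That sum followed TFAP2C (115.4 CPM in DMSO and 86.4 CPM at 10 µM) and SOX2 (15.5 and 4.35 CPM), whereas ZFP42 was called higher at 10 µM (log2 fold change 0.79, SE 0.11, edgeR adjusted p = 0.000553). Of 14 markers of other cells, 0 to 3 reached 1 CPM, those at 0 included CD3E and INS, and the sum was 3.02 to 6.49 CPM over all libraries. The part of these shifts in the results below was not tested.

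Members of the cleavage-stage families rose with TP-472, 15 of them at 10 µM and 8 at 5 µM, and none was called lower. Of the 15, 8 share over 50% of their stretches of 50 bases with other genes. Reads can be split between such copies, so the 15 calls are not all independent. Of the 50 members, 9 were at 0 in all libraries (PRAMEF10, PRAMEF16, PRAMEF17, PRAMEF19, PRAMEF22, PRAMEF25, RFPL3, LEUTX and TPRX1) and 41 had counts. Only 26 passed the filter on low counts, and 22 of these passed it because of their counts in TP-472 libraries, so shares of the members are given out of 50. At 5 µM, 8 of 50 members were called higher than in DMSO (fold change of at least 1.5 and adjusted p under 0.05 in edgeR's quasi-likelihood test), where 2.14% of the 16417 genes tested were called higher. At 10 µM, 15 of 50 were called higher, beside 8.57% of genes tested. The members were chosen with earlier results of these data known, and 24 of the 50 were below the filter. Their shares beside those of all genes tested are therefore no measure of enrichment. At 10 µM against 5 µM, 2 of 50 were called higher, ZSCAN4 and PRAMEF12, beside 1.42% of genes tested. In edgeR, 0 members were called lower in each of the 3 comparisons, where 2.72%, 10.5% and 2.59% of genes tested were, and 0 were lower at an unadjusted p under 0.05 or in DESeq2 and limma-voom. That absence says little, because only 4 members would have passed the filter on their DMSO counts alone. The other tested members had little room to fall below DMSO.

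Separation of the libraries was a weaker description than these calls. At 5 µM, all 3 libraries lay above all 3 DMSO libraries for 11 of 50 members (22%), or 42.3% of the 26 tested, beside 23.7% of genes tested. At 10 µM this held for 16 members (32%), beside 23.4% of genes tested. Of the 16, 15 were tested (57.7% of the 26) and KDM4E was below the filter. All 3 libraries at 10 µM lay above all 3 at 5 µM for 9 members (18%, or 34.6% of the 26), beside 12.1%. Neither base is like that of all genes tested. The 50 include members below the filter, and 22 of the 26 passed it because of their counts in TP-472 libraries. By mean CPM, 34 of 50 members were higher at 5 µM than in DMSO, 39 were higher at 10 µM than in DMSO and 35 were higher at 10 µM than at 5 µM, where 49.2%, 50.8% and 49.8% of the 21422 symbols with any count were.

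The number of calls moved with the libraries used and with the processing. Over all alternatives that tested the gene, 9 of 15 calls at 10 µM were always kept, 2 of 8 at 5 µM and 0 of 2 between doses. At 10 µM, MBD3L2 and RFPL4B each lost the call in 9 of 17 alternatives and TRIM49C in 9 of 18. TRIM49 lost it in 7 of 16, PRAMEF14 in 7 of 17 and TRIM43 in 1 of 16. When 1 library was left out at a time, the members called higher ranged from 2 to 12 at 5 µM, from 10 to 21 at 10 µM and from 0 to 6 between the doses. Each highest count came without the first 10 µM library, where 3.43%, 8.17% and 1.91% of all genes tested were called higher. The lowest at 5 µM came without the third DMSO library, with 1.2% of all genes tested, and the lowest at 10 µM without DMSO replicate 2 or 3, with 6.31% and 6.22%. The number at 5 µM was 3 without the first or second DMSO library or any 5 µM library. Between the doses it was 0 without DMSO replicate 1 or 2 or 5 µM replicate 1 or 3.

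**Figure D1:**
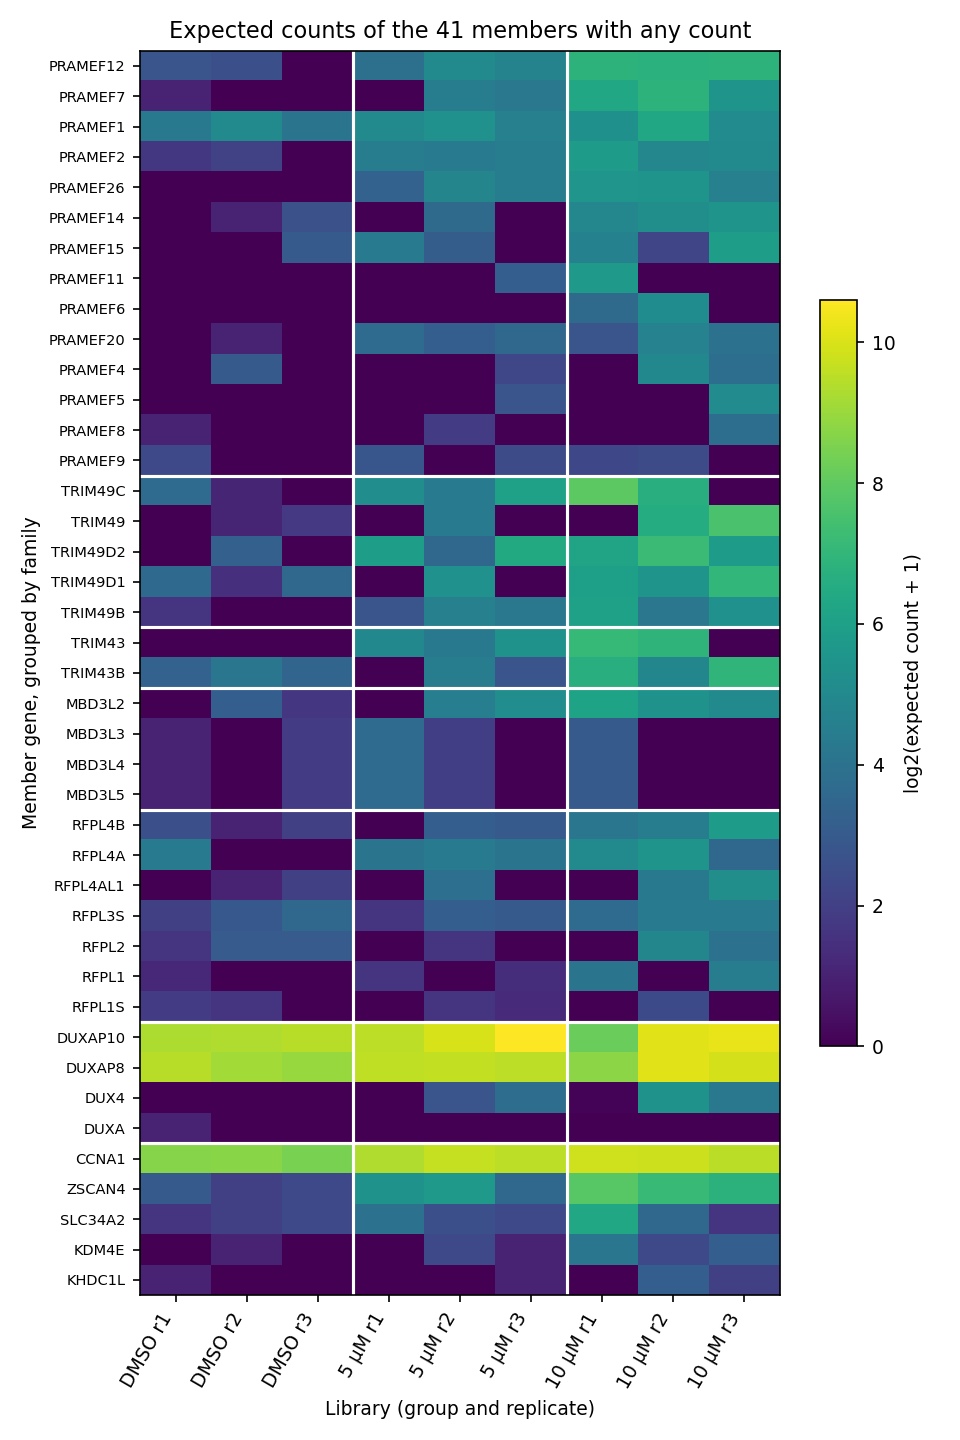
Expected counts of the 41 members with any count, as log2(count + 1), with 1 row per gene grouped by family and 1 column per library. Most rows are dark in the 3 DMSO columns and brightest in the 10 µM columns, apart from CCNA1, DUXAP8 and DUXAP10, which had 354 to 705 counts in each DMSO library.

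ZSCAN4, a zinc finger protein with a SCAN domain that is a hallmark of the cleavage-stage state, had expected counts of 7, 3 and 4 in DMSO, 43, 53 and 11 at 5 µM and 229, 141 and 111 at 10 µM. The 3 groups did not overlap. The mean level was 0.0991 ± 0.0398 CPM (SD, n = 3) without inhibitor, 0.731 ± 0.440 CPM with 5 µM and 3.23 ± 1.32 CPM with 10 µM. The log2 fold change was 2.85 (SE 0.64, edgeR adjusted p = 0.0208) at 5 µM and 4.99 (SE 0.65, edgeR adjusted p = 0.000325) at 10 µM. Between the doses it was 2.14 (SE 0.54, edgeR adjusted p = 0.0380). No stretch of 50 bases in the annotated ZSCAN4 transcripts (chr19:57668935-57679152, plus strand) occurred in another gene of GENCODE 29.

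CCNA1, cyclin A1, which partners cyclin-dependent kinases in the male germline, had the most counts in DMSO apart from the pseudogenes. Its expected counts were 404, 425 and 354 in DMSO, 653, 810 and 752 at 5 µM and 918, 901 and 729 at 10 µM. Both TP-472 groups lay above DMSO and overlapped each other. From 8.42 ± 0.310 CPM (SD, n = 3) the level rose with 5 µM to 15.1 ± 0.737 CPM, a log2 fold change of 0.85 (SE 0.11, edgeR adjusted p = 0.00128). At 10 µM it was 17.0 ± 2.07 CPM, a log2 fold change of 1.02 (SE 0.11, edgeR adjusted p = 9.71e-05). CCNA1 (chr13:36431520-36442882, plus strand) also shared no 50-base stretch with another gene. CCNA2, its mitotic paralog and no member, fell by 1.23 on the log2 scale at 10 µM (SE 0.08, edgeR adjusted p = 3.84e-06).

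The other single genes had few counts. SLC34A2, a sodium-dependent phosphate transporter, had expected counts of 2, 3 and 4 in DMSO, 15, 5 and 4 at 5 µM and 79, 11 and 2 at 10 µM. The high value was that of the first 10 µM library alone, the groups overlapped, and neither dose passed the test (edgeR adjusted p = 0.593 and 0.0701). KDM4E, a histone H3 lysine demethylase, was below the filter with 1 count in DMSO, 5 at 5 µM and 29 at 10 µM over the group. The ratio of 10 µM to DMSO was 27.3 (95% interval 4.52 to 1114, counting error only). KHDC1L, a KH domain gene, had 1, 1 and 11 counts, and LEUTX and TPRX1, homeobox genes of embryonic genome activation, were at 0 throughout.

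PRAMEF genes encode leucine-rich repeat proteins related to the melanoma antigen PRAME, and 18 of the 20 were found in GENCODE 29 within chr1:12774841-13421328. Summed over the family, the level was 0.658, 1.01 and 0.662 CPM in the DMSO libraries, 2.51, 3.33 and 2.94 CPM at 5 µM and 9.51, 9.79 and 8.75 CPM at 10 µM. No group overlapped another. The mean sum was 3.77 times that of DMSO at 5 µM and 12.1 times at 10 µM. Which PRAMEF gene led the sum also changed, since PRAMEF1 took 56.3% to 64.8% of it in the DMSO libraries, while PRAMEF12 or PRAMEF7 led at 10 µM with 22.6% to 26.8%. PRAMEF1 and PRAMEF7 share 56.2% and 87.6% of their 50-base stretches with other genes, so their parts of the sum depend on how reads were split.

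PRAMEF12 shares only 3.28% of its 50-base stretches with other genes. Its expected counts were 6, 5 and 0 in DMSO, 14, 33 and 26 at 5 µM and 116, 108 and 115 at 10 µM. The 3 groups did not overlap, and the 10 µM libraries lay close together. The log2 fold change was 2.65 (SE 0.68, edgeR adjusted p = 0.0363) at 5 µM, 4.84 (SE 0.69, edgeR adjusted p = 0.000550) at 10 µM and 2.19 (SE 0.58, edgeR adjusted p = 0.0449) between the doses. PRAMEF20, with 4.33% shared, had 0, 1 and 0 counts in DMSO, 12, 8 and 11 at 5 µM and 6, 25 and 14.4 at 10 µM. Its ratio to DMSO was 29.9 (95% interval 4.98 to 1217) at 5 µM and 42.3 (7.22 to 1708) at 10 µM, with edgeR adjusted p = 0.0328 and 0.00687. Both TP-472 groups lay above DMSO and overlapped each other.

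PRAMEF2 (40.6% shared) had 2.31, 3.12 and 0 counts in DMSO, 20.9, 19.4 and 21.2 at 5 µM and 56.2, 29.2 and 33.2 at 10 µM, with no overlap between any groups. Its log2 fold change was 3.49 (SE 0.77, edgeR adjusted p = 0.0196) at 5 µM and 4.41 (SE 0.78, edgeR adjusted p = 0.00192) at 10 µM. The difference between doses was 0.92 (SE 0.62, edgeR adjusted p = 0.391). PRAMEF26 was at 0 in all DMSO libraries and had 9.19, 27.4 and 21.1 counts at 5 µM and 44.6, 43.8 and 23.5 at 10 µM, so the doses overlapped. Against a floor of 3 counts over the DMSO group it was at least 18.3-fold higher at 5 µM and at least 35.4-fold higher at 10 µM (edgeR adjusted p = 0.00641 and 0.000902). All of its 50-base stretches occur in other genes, chiefly PRAMEF25, which was at 0, so these reads cannot be assigned to PRAMEF26 with certainty.

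PRAMEF7 shares 87.6% of its 50-base stretches with PRAMEF8. PRAMEF14, PRAMEF1 and PRAMEF15 share 68.4%, 56.2% and 80.8% with other genes. Reads of these genes cannot be assigned to single copies with certainty. PRAMEF7 had 1, 0 and 0 counts in DMSO, 0, 21.3 and 18 at 5 µM and 79, 115 and 43.9 at 10 µM. It was called at 10 µM only (edgeR adjusted p = 0.0652 at 5 µM and 0.00272 at 10 µM), and whether it differed between doses did not pass the test (edgeR adjusted p = 0.123). PRAMEF14 had 0, 1.10 and 5.21 counts in DMSO, 0, 11.7 and 0 at 5 µM and 28.9, 36.8 and 44.1 at 10 µM, and its log2 fold change at 10 µM was 3.98 (SE 1.37, edgeR adjusted p = 0.0473). In both genes the 10 µM libraries lay above all others. PRAMEF1, the member with the most PRAMEF counts in DMSO, had 18.4, 31.8 and 15.8 counts there and 39.0, 78.9 and 34.2 at 10 µM, a log2 fold change of 1.10 that did not pass (SE 0.48, edgeR adjusted p = 0.103). PRAMEF15 did not pass either (0, 0 and 7 counts in DMSO, 24.1, 3.59 and 60.8 at 10 µM, edgeR adjusted p = 0.123).

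Another 6 PRAMEF genes with counts were below the filter. Over the groups of DMSO, 5 µM and 10 µM, PRAMEF11 had 0, 8 and 51 counts, PRAMEF6 had 0, 0 and 46, and PRAMEF5 had 0, 6 and 34. At 10 µM these were at least 16.0-fold, 14.4-fold and 10.7-fold higher than DMSO on the floor of 3 counts. PRAMEF4 had 7, 4 and 43 counts, PRAMEF8 had 1, 3 and 13, and PRAMEF9 had 4, 11 and 8. The counts of PRAMEF11 at 10 µM came from 1 library and those of PRAMEF5 from another. PRAMEF5 and PRAMEF6 share 89.1% of the 50-base stretches of PRAMEF5, and neither had counts in the same 10 µM library as the other.

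**Figure D2:**
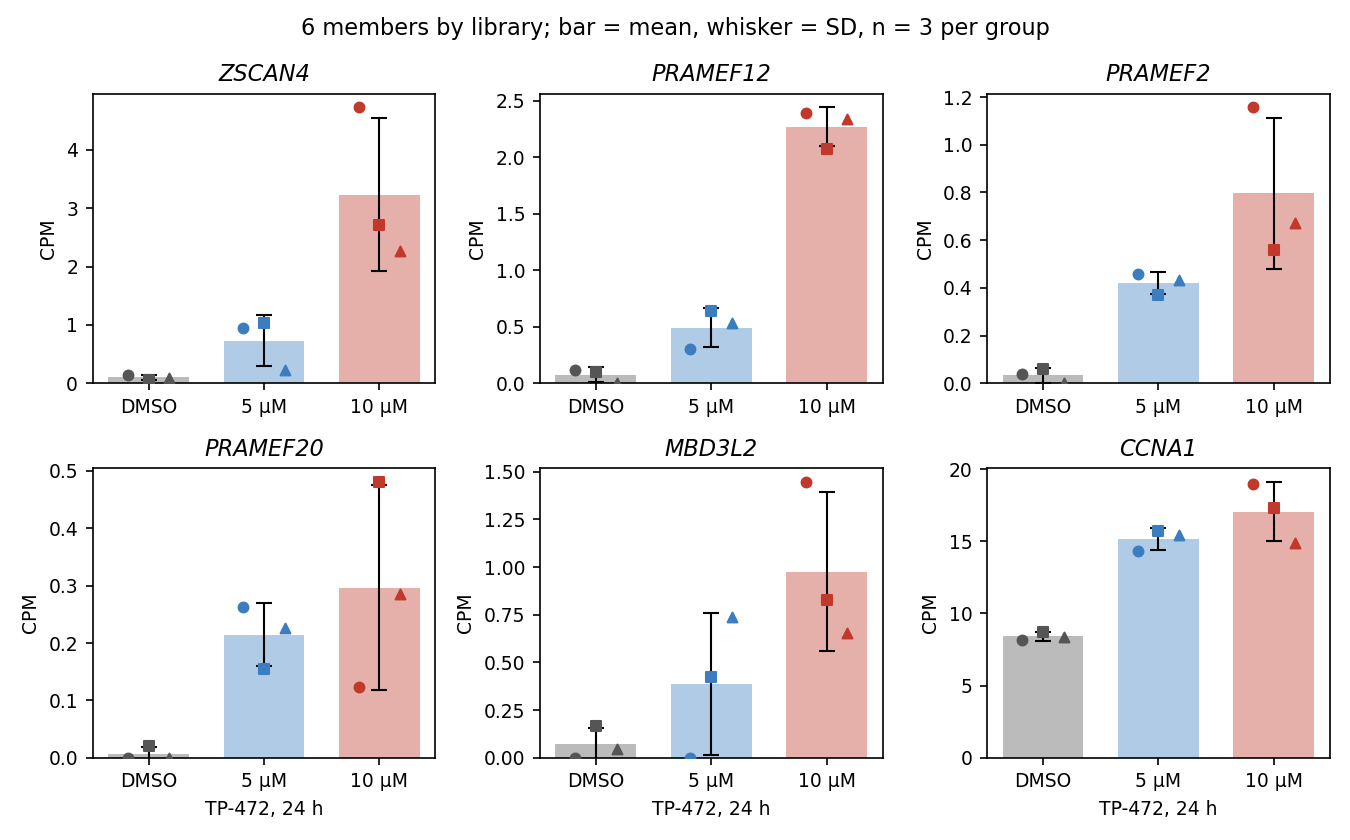
CPM of ZSCAN4, PRAMEF12, PRAMEF2, PRAMEF20, MBD3L2 and CCNA1 in each library, with the group mean as a bar and the SD as a whisker (n = 3; whiskers are cut at 0). ZSCAN4, PRAMEF12 and PRAMEF2 separate all 3 groups, while CCNA1 reaches 15.1 CPM with 5 µM and 17.0 CPM with 10 µM, with overlap between the doses.

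TRIM49 and TRIM43 genes encode tripartite motif proteins, a family that holds many ubiquitin ligases. The 5 TRIM49 genes lie on chromosome 11, and their summed level was 0.511, 0.255 and 0.318 CPM in DMSO, 2.21, 2.22 and 3.47 CPM at 5 µM and 9.16, 7.84 and 8.48 CPM at 10 µM. The groups did not overlap, and the mean sum was 7.29 times that of DMSO at 5 µM and 23.5 times at 10 µM. The 2 TRIM43 genes lie on chromosome 2, and their sum was 0.181, 0.350 and 0.236 CPM in DMSO, 0.657, 0.755 and 0.965 CPM at 5 µM and 4.83, 2.81 and 2.51 CPM at 10 µM. These groups did not overlap either, and the ratios to DMSO were 3.10 and 13.2.

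Within these sums the split between copies was not stable from library to library. TRIM43 had 0 counts in DMSO, 30, 18.3 and 41.1 at 5 µM, and 136, 118 and 0 at 10 µM, while TRIM43B had 9, 17 and 10, then 0, 20.7 and 5.87, then 98.4, 28.2 and 123. The third 10 µM library therefore held all of its 123 counts in TRIM43B, and the DMSO libraries likewise. TRIM43 shares 77.3% of its 50-base stretches with other genes and TRIM43B 79.3%. At 10 µM TRIM43 was called (at least 79.6-fold higher, edgeR adjusted p = 0.0155) and TRIM43B was not (log2 fold change 2.71, SE 0.95, edgeR adjusted p = 0.0504), but the family sum does not depend on that split. TRIM43B lay so near the threshold that it was called under RLE or upper quartile factors, with no filter, without rounding, with only the groups compared and in DESeq2 (adjusted p = 0.00812 to 0.0496 over edgeR and DESeq2).

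Among the TRIM49 genes, TRIM49B is the least shared (45.5%). It had 2, 0 and 0 counts in DMSO, 5.97, 23.5 and 17.9 at 5 µM and 66.3, 17.3 and 40.4 at 10 µM, so both doses lay above DMSO and overlapped each other. Its ratio to DMSO was 23.1 (95% interval 6.06 to 196) at 5 µM and 57.8 (15.7 to 483) at 10 µM, with edgeR adjusted p = 0.0366 and 0.00319. TRIM49D2, all of whose 50-base stretches occur in TRIM49D1, had 0, 8.43 and 0 counts in DMSO, 59.1, 11.1 and 85.3 at 5 µM and 73.0, 148 and 57.7 at 10 µM. It was called at both doses (log2 fold change 4.21, SE 1.13, edgeR adjusted p = 0.0424 at 5 µM, and 4.97, SE 1.14, edgeR adjusted p = 0.00761 at 10 µM).

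TRIM49 and TRIM49C share over 80% of their stretches with other genes (83.8% and 84.3%), and the split of counts between them varied by library. At 10 µM, TRIM49 had 0, 95.1 and 188 counts and TRIM49C had 243, 104 and 0. Both were called at 10 µM (edgeR adjusted p = 0.0377 and 0.0426) although each overlapped DMSO through its library at 0. TRIM49D1 had 11.4, 1.69 and 11.0 counts in DMSO, 0, 39.9 and 0 at 5 µM and 61.6, 43.7 and 130 at 10 µM, with no overlap between 10 µM and the other groups and an edgeR adjusted p of 0.0985 against DMSO.

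**Figure D3:**
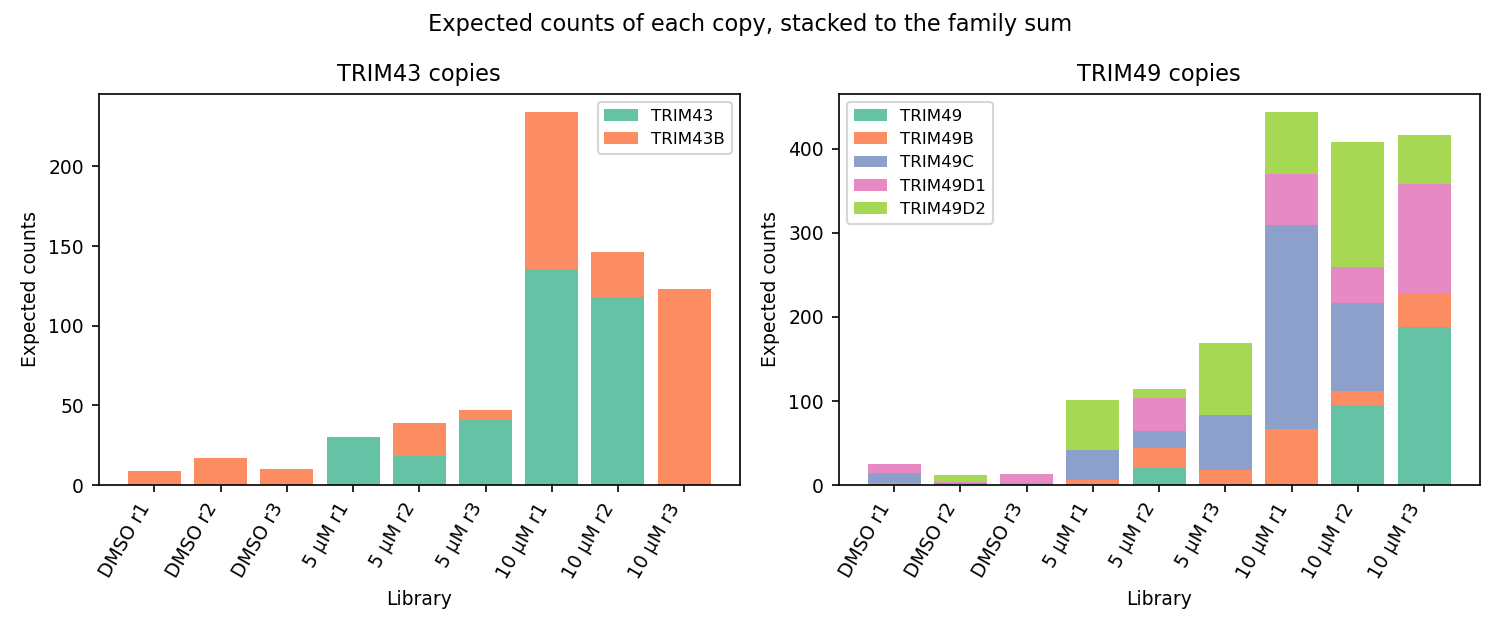
Expected counts of each TRIM43 copy (left) and TRIM49 copy (right), stacked to the family sum, in each of the 9 libraries. The stack heights order the groups, while single colours vanish from some libraries, such as TRIM43 and TRIM49C from the third 10 µM library and TRIM49 from the first.

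MBD3L genes encode relatives of MBD3, a subunit of the NuRD repressor complex, and lie within chr19:7030578-7058640. Their summed level was 0.0604, 0.165 and 0.236 CPM in DMSO, 0.789, 0.600 and 0.739 CPM at 5 µM and 1.88, 0.827 and 0.652 CPM at 10 µM. Both TP-472 groups lay above DMSO and overlapped each other, with ratios to DMSO of 4.62 and 7.28. Most counts were those of MBD3L2, and without it the log2 ratio of the sum at 10 µM to DMSO was 0.81. MBD3L2 shares 90.05% of its 50-base stretches with other genes, 82.8% with MBD3L2B, which is not a member. For MBD3L3, MBD3L4 and MBD3L5 the shared part is 93.11%, 100% and 90.95%. The values of MBD3L2 and the sum without it therefore depend on how reads were split between copies. MBD3L2 had 0, 8 and 2.16 counts in DMSO, 0, 22.2 and 36 at 5 µM and 70.2, 43 and 32 at 10 µM. The higher dose passed the test (log2 fold change 3.73, SE 1.29, edgeR adjusted p = 0.0473), the lower dose did not (edgeR adjusted p = 0.289), and the difference between doses had an edgeR adjusted p of 0.500. That call at 10 µM was lost in 9 of 17 alternatives. MBD3L3, MBD3L4 and MBD3L5 held the same value as each other in every library, and their counts over the groups were 4, 15 and 7 each.

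RFPL genes encode ret finger protein-like proteins. Their summed level was 0.684, 0.370 and 0.567 CPM in DMSO, 0.438, 1.05 and 0.677 CPM at 5 µM and 1.59, 2.60 and 3.24 CPM at 10 µM. The 5 µM libraries overlapped DMSO and the 10 µM libraries lay above both, with ratios to DMSO of 1.33 and 4.58. RFPL4B, the only RFPL gene called, had 5, 1 and 3 counts in DMSO, 0, 8 and 7 at 5 µM and 17, 21 and 56 at 10 µM. Its log2 fold change at 10 µM was 3.25 (SE 1.04, edgeR adjusted p = 0.0355), and 36.7% of its exonic bases overlap the gene AL365214.3 on the same strand.

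The remaining RFPL genes did not pass the test or the filter. RFPL4A had 20, 0 and 0 counts in DMSO and 32, 43.7 and 11.0 at 10 µM (edgeR adjusted p = 0.215), though its DMSO counts came from 1 library, and without that library it was called at both doses (edgeR adjusted p = 0.0381 and 0.00766). RFPL4AL1 had 0, 1 and 3 counts against 0, 18.4 and 37.1 (edgeR adjusted p = 0.161). These groups overlapped. The antisense transcript RFPL3S had 3, 6.66 and 10.7 counts in DMSO and 12, 20 and 19.0 at 10 µM (edgeR adjusted p = 0.273). Over the groups of DMSO, 5 µM and 10 µM, RFPL1 had 1, 4 and 37 counts, RFPL2 had 16, 2 and 43, and RFPL1S had 5, 3 and 4. RFPL1 and RFPL3 overlap RFPL1S and RFPL3S on opposite strands, and reads of such a pair cannot be told apart unless strand was used, which no source here states.

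**Figure D4:**
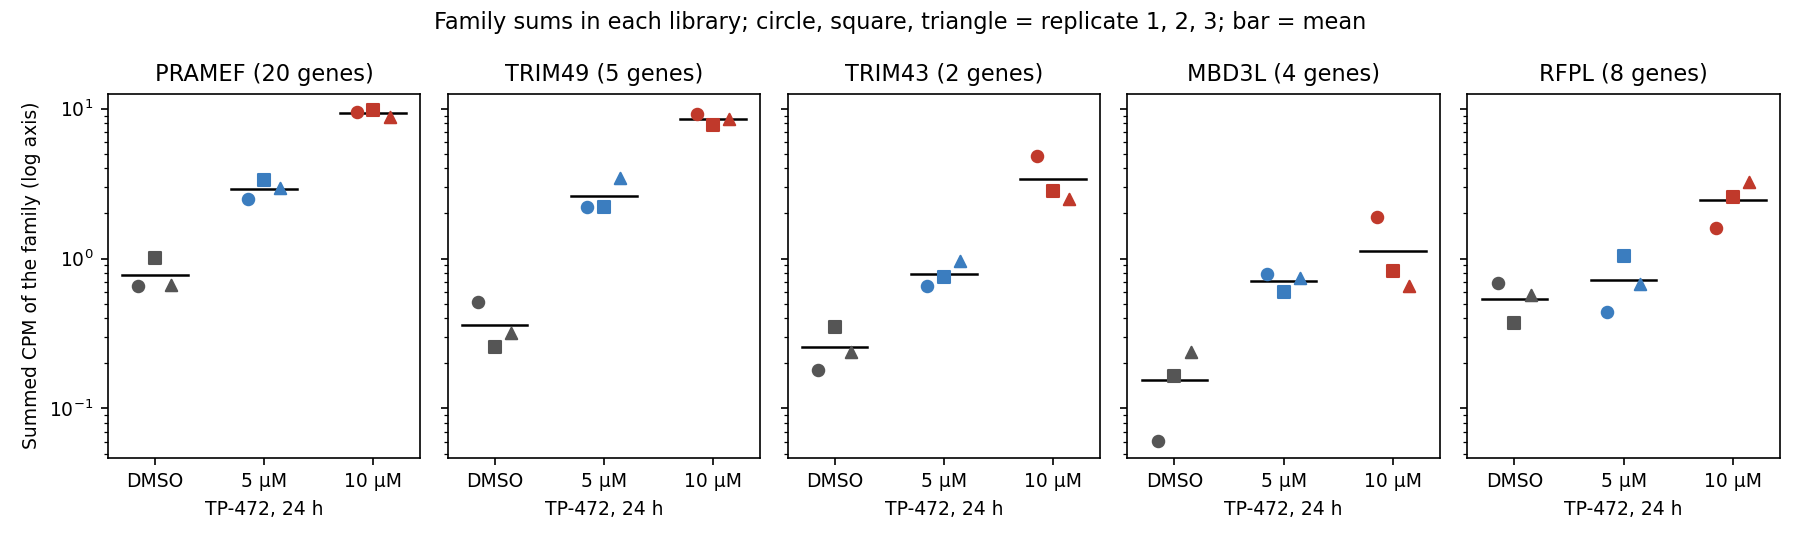
Summed CPM of 5 families in each library on a log axis, with replicate 1 as a circle, 2 as a square and 3 as a triangle, and the group mean as a bar. PRAMEF, TRIM49 and TRIM43 order the 3 groups without overlap, MBD3L separates both doses from DMSO, and RFPL separates 10 µM alone.

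The DUX genes themselves gave few reads apart from the pseudogenes. DUX4 was at 0 in the 3 DMSO libraries and had 0, 6 and 12.9 counts at 5 µM and 0.08, 41 and 18 at 10 µM. It was not called at either dose (edgeR adjusted p = 0.234 and 0.0541), but it was called at 10 µM with no low-count filter (edgeR adjusted p = 0.0472) and in DESeq2 (adjusted p = 0.00912). On the floor of 3 counts it was at least 6.10-fold higher at 5 µM and at least 18.5-fold higher at 10 µM. The libraries were uneven, since the first library of each TP-472 group had no whole count of DUX4 while the first 10 µM library had the most ZSCAN4 counts, 229. DUX4 shares 67.3% of its 50-base stretches with other genes, mainly the copies of its repeat, and only 1 DUX4 row was in the table. Without the first 10 µM library, which held 0.08 counts of DUX4, the gene was called at both doses (edgeR adjusted p = 0.0352 and 0.00270).

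DUXA had 1 count in all 9 libraries, in DMSO. DUXAP10 and DUXAP8, transcribed pseudogenes of DUXA, made up nearly all of the DUX sum, with DUXAP10 at 14.2 ± 2.03, 22.7 ± 8.25 and 17.4 ± 10.04 CPM (SD, n = 3) in DMSO and the rising doses. DUXAP8 was at 12.6 ± 1.38, 16.0 ± 0.778 and 16.9 ± 6.86 CPM. Neither was called (edgeR adjusted p = 0.392 and 0.489 at 5 µM, 0.636 and 0.242 at 10 µM). In the first 10 µM library both were below every DMSO library, and without it their log2 fold changes at 10 µM were 0.70 and 0.72 (edgeR adjusted p = 0.00849 and 2.14e-05).

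Members were also grouped by how much of their sequence occurs in other genes. Of the 48 members with GENCODE 29 transcripts, 13 shared at most 20% of their 50-base stretches with other genes, and 4 of these were called higher at 10 µM (CCNA1, PRAMEF12, PRAMEF20 and ZSCAN4). Of 7 members that shared 20% to 50%, 3 were called (PRAMEF2, RFPL4B and TRIM49B), and of 28 that shared more, 8 were. Each count stands beside the 8.57% of genes tested, though members entered the test mostly through their treated libraries. A rise in these bulk samples can come from more cells with the transcripts or from more transcript per cell, which cannot be told apart.

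Other genes known as DUX4 targets, from a list of 54 of which 32 were in the table and 17 were tested, had 8 called higher at 10 µM and 0 lower in edgeR, DESeq2 and limma-voom alike, where edgeR called 8.57% of genes tested higher. Of the 17, 9 had a DMSO mean under the 0.2083 CPM of the filter, among them 7 of the 8, so these entered the test through treated libraries and the share called is no measure of the list. At 5 µM, 1 was higher and 1 lower in edgeR. FRG2C, a gene of the subtelomeric FRG2 family, had 0, 1 and 0 counts in DMSO, 15, 5 and 5.08 at 5 µM and 44.7, 45.4 and 29.6 at 10 µM. Its groups did not overlap, and the adjusted p in edgeR was 0.0339 at 5 µM and 0.00106 at 10 µM. FRG2 had 6.39, 5 and 9 counts in DMSO and 108, 88.6 and 135 at 10 µM, a log2 fold change of 3.93 (SE 0.71, edgeR adjusted p = 0.00220). TRIM53AP, a TRIM pseudogene, rose by 2.55 on the log2 scale (SE 0.42, edgeR adjusted p = 0.00128) and CA2, a carbonic anhydrase, by 3.53 (SE 0.76, edgeR adjusted p = 0.00576). HNRNPCL3, KHDC1, NANOGNB, TRIM77, ZNF705B and ZNF705G were at 0 in all libraries. The 1 lower gene at 5 µM was SNAI1, a transcriptional repressor, with a log2 fold change of -0.71 (SE 0.13, edgeR adjusted p = 0.00885). Its value at 10 µM, -0.45 (SE 0.13, edgeR adjusted p = 0.0260), was under the fold required, and it was the only gene of the list lower at an unadjusted p under 0.05 in edgeR.

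Outside the symbol rule, 37 genes held the DUX4 consensus in a RefSeq promoter, and this set was examined after the members' results were known. Of these, 18 were in the table and 13 were tested. In edgeR, 6 were called higher at 10 µM and 0 lower, where 8.57% and 10.5% of genes tested were. DESeq2 and limma-voom gave the same counts, and 0 were lower at an unadjusted p under 0.05. The 6 were TRIM48 and PRR20A to PRR20E, and the 5 PRR20 copies held identical counts, so they stand for 1 measurement. TRIM48 had a DMSO mean of 0.0687 CPM, under the 0.2083 CPM of the filter, so it entered the test through treated libraries. PRR20A had 18.8, 12.2 and 7.6 counts in DMSO, 14.4, 29.8 and 17.6 at 5 µM and 64.6, 59.8 and 60.8 at 10 µM, with a log2 fold change at 10 µM of 2.18 (SE 0.47, edgeR adjusted p = 0.00555). TRIM48, a close relative of TRIM49, had 1.09, 1 and 6.64 counts in DMSO and 59.1, 62.9 and 28.7 at 10 µM (log2 fold change 3.87, SE 0.89, edgeR adjusted p = 0.00777). In both genes the 10 µM libraries lay above all others. API5, BABAM1, CD200R1, GPBP1, SLC4A5, SMYD3 and TMEM244, which also held the consensus, were not called.

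Paralogs of the members outside the rule moved in both directions. Of 28 in the table, 18 were tested and 8 had an edgeR adjusted p under 0.05 at 10 µM. Of these, 3 were called higher (TRIM22, TRIM48 and ZSCAN5A) and 2 lower (CCNA2 and OTX1), beside 8.57% and 10.5% of genes tested. The median log2 fold change was -0.10 beside 0.01 over all genes tested. TRIM48 is the same gene that was called among the other DUX4 targets and among the genes with the consensus outside the rule. It entered the test through treated libraries. TRIM22, an interferon-induced TRIM protein, rose by 0.96 (SE 0.18, edgeR adjusted p = 0.00262), and TRIM21, an antibody receptor with ligase activity, had a log2 fold change of 0.57 (SE 0.11, edgeR adjusted p = 0.00242), under the fold required. PRAME, named here after its values were seen, was at 169 ± 2.22 CPM in DMSO and 149 ± 10.7 CPM at 10 µM and was not called (edgeR adjusted p = 0.0670).

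Genes known to hold cleavage-stage transcripts down or to act on chromatin at them, 39 tested of 40 in the table, had 0 past both thresholds at 5 µM in edgeR, DESeq2 and limma-voom, although 7 had an adjusted p under 0.05 in edgeR with a fold under 1.5, and 3 higher and 7 lower had an unadjusted p under 0.05. At 10 µM, 20 of the 39 had an edgeR adjusted p under 0.05, and 2 were called higher and 7 lower, beside 8.57% and 10.5% of genes tested. The median log2 fold change was -0.28. CHAF1B and CHAF1A, subunits of chromatin assembly factor 1, fell by 1.09 (SE 0.11, edgeR adjusted p = 4.73e-05) and 0.68 (SE 0.07, edgeR adjusted p = 6.19e-05) on the log2 scale. CHAF1B was also lower at 10 µM than at 5 µM, where it fell by 0.67 (SE 0.10, edgeR adjusted p = 0.00448). BRD2, a BET bromodomain protein, rose by 0.66 (SE 0.07, edgeR adjusted p = 5.79e-05). The inhibitor's targets BRD9 and BRD7, named after their values were seen, were not called at 10 µM (log2 fold changes 0.27 and -0.19, edgeR adjusted p = 0.0763 and 0.111). The part of any of these changes in the members' rise was not tested.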

How the data were processed

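Total RNA of 9 samples was sequenced as strand-specific libraries. The labels describe oligo-dT purification, while the series design text describes ribosomal RNA depletion. Expected counts by gene symbol were deposited by the authors in 1 table, without scaling to library size. The submitters' processing notes name RSEM 1.2.15, Bowtie2 2.1.0 and hg38, and for the annotation, filters and use of strand nothing is stated.

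Expected counts were rounded and tested with edgeR 4.0.16 in R 4.3.3, using all 9 libraries, TMM factors (0.957 to 1.029), the filterByExpr filter (16417 genes), the quasi-likelihood F test and Benjamini-Hochberg adjustment over all genes tested. SE was taken as the size of the change over the root of F. The script was tested on simulated data. CPM used the TMM-scaled library sizes. Alternatives were DESeq2 1.42.0, limma 3.58.1 (voom), other scaling, filters and sample choices. A ratio against a group at 0 used a floor of 3 counts over the group, and 95% intervals are exact and cover counting error only. Gene positions and shared 50-base stretches came from GENCODE 29 (GRCh38), promoters from RefSeq, read with Python 3.11.15. Family sums were described without a test. Named genes were all members, the 4 with the smallest p at 10 µM of each other list, and the marker genes at the highest level or at 0, except for genes that are not reported here. Members and lists were chosen with earlier results of these data known. Depth was 42483091 to 51298130 counts.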

Additional observations from a re-analysis of the deposited data

How the results depend on the processing

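The members called higher numbered 8, 15 and 2 at 5 µM, at 10 µM and at 10 µM against 5 µM, and 0 were lower under every alternative run. Most tested members had little room to fall below DMSO. At 10 µM, 9 of the 15 calls were kept in every alternative that tested the gene (CCNA1, PRAMEF12, PRAMEF2, PRAMEF20, PRAMEF26, PRAMEF7, TRIM49B, TRIM49D2 and ZSCAN4), at 5 µM 2 of 8 (CCNA1 and PRAMEF26), and between doses 0 of 2. With a minimum of 1 CPM in 3 libraries or more, which leaves fewer members to test, the counts at 5 µM and 10 µM were 4 and 5. DESeq2 called 9, 19 and 4 and limma-voom 2, 11 and 3, and a fit of only the groups compared called 1 between doses. Leaving out 1 library at a time gave 2 to 12 at 5 µM, 10 to 21 at 10 µM and 0 to 6 between doses. The last count was 6 without 10 µM replicate 1, 1 without 10 µM replicate 3, DMSO replicate 3 or 5 µM replicate 2, and 0 without DMSO replicate 1 or 2 or 5 µM replicate 1 or 3. The cause was not tested.

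With the replicate number as a block, 4, 12 and 1 members were called, and DUX4 was called at 10 µM (edgeR adjusted p = 0.0398). Deviations of same-numbered libraries correlated at -0.07 to 0.10. For 1 of 9 libraries, the 2 highest correlations with libraries of other groups were both with its own number. The numbers were therefore not taken as pairs. Log2 ratios of family sums without the member with the most counts were 0.81 for MBD3L and 2.73 for TRIM43 at 10 µM, and -0.16 for RFPL and -0.56 for TRIM43 at 5 µM, where the direction turned.

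Single log2 fold changes that were not called also turned. At 5 µM, TRIM49D1 was -0.015 with the block and -1.63 in limma-voom, and PRAMEF14 was -0.14 in limma-voom. In limma-voom between doses, DUXAP8 was -0.010, TRIM43 -0.49 and TRIM49C -0.64. When 1 library was left out, the 5 µM values ran from -6.08 to 1.16 for TRIM49D1, -4.18 to 2.68 for PRAMEF14, -3.62 to 2.89 for RFPL4AL1 and -3.22 to 3.40 for TRIM49, each lowest without 5 µM replicate 2. They ran from -0.80 to 0.16 for RFPL3S and -1.99 to 0.054 for TRIM43B. Between doses they ran from -0.73 to 0.025 for DUXAP10, -0.15 to 0.38 for DUXAP8 (-0.049 without 10 µM replicate 3), -0.40 to 2.77 for SLC34A2 and -0.068 to 0.83 for PRAMEF20. DUXAP10 at 10 µM ran from -0.050 to 0.70. Most members had under 100 counts per library, which limits single genes more than family sums.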
